A study of Mus musculus with 9 samples.

Results

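The ubiquitin-conjugating enzymes (E2s) of mouse gastrocnemius muscle were followed through cisplatin injection with and without an oral agent labelled RP. The genes were taken by name: every symbol of the form Ube2 followed by a letter and any further letters or digits, which gave 37 of the 23238 gene symbols in the deposited count tables. The naming rule uses no measured value, though it was chosen with earlier results of these data known. Of the 37 genes, 30 passed a filter on low counts and were tested. Ube2cbp, among the 37, carries the name because its product binds an E2, and acts as an E3 ligase itself.

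The muscles came from female C57BL/6 mice, an inbred laboratory strain, bought at 4 weeks of age and acclimated for 7 days. The Normal group (3 libraries) received 4 intraperitoneal injections of saline and water by mouth for 9 days. The Cisplatin group (3 libraries) was injected 4 times by the same route with 3 mg/kg cisplatin, a platinum compound that binds and crosslinks DNA, and drank water. The RP group (3 libraries) received the same cisplatin and RP at 100 mg/kg by mouth for 9 days. The series title names a Paeonia lactiflora (peony) extract and muscle E3 ligases, and the labels do not spell out RP. No group received RP alone, so every RP value is that of RP on top of cisplatin. The labels do not say whether each library came from its own mouse or from a pool, and p-values measure only the spread between these libraries, which may be technical. RNA was measured by QuantSeq, which reads 1 tag near the 3′ end of each transcript. Whole gastrocnemius was taken, so fewer cells of a type and less RNA per cell cannot be told apart in any result.

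Ubiquitin is attached to proteins by a relay. An E1 enzyme activates ubiquitin with ATP and hands it to the catalytic cysteine of an E2, and an E3 ligase brings the loaded E2 to its target. The E2 often sets which kind of ubiquitin chain is built, for example chains read by the proteasome or chains used in signalling. Some E2s carry related modifiers in place of ubiquitin, such as SUMO, NEDD8, ISG15 and FAT10. In wasting muscle the best known E3s are Fbxo32 (atrogin-1) and Trim63 (MuRF1). Fbxo32 works in a cullin-RING ligase, a class served by E2s of the UBE2D, UBE2R and UBE2G1 types, and Trim63 is a RING ligase that uses UBE2D enzymes in the test tube.

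Library totals ran from 8196030 to 10678342 counts, with 14756 to 15527 genes detected per library. The share of Rn45s, a ribosomal RNA precursor, was 12.6 to 12.8% (Normal), 9.23 to 12.1% (Cisplatin) and 7.38 to 11.8% (RP). The 10 muscle fibre genes had summed scaled counts (CPM, relative to the library total) of 109860 to 128400 in the Normal libraries, 84314 to 105790 in the Cisplatin libraries and 120090 to 139160 in the RP libraries, and 0 of the 10 were at 0 over a group. The 8 fibroblast markers gave 2872 to 4005 CPM (Normal), 437 to 886 (Cisplatin) and 2142 to 3014 (RP). The 8 macrophage markers gave 211 to 274, 47.1 to 85.2 and 109 to 171 CPM, and 8 endothelial markers 403 to 458, 242 to 327 and 320 to 423 CPM, in the same order. These sums moved with the groups, but single markers did not all follow. In Cisplatin against Normal, edgeR called fallen 5 of the 10 fibre genes, 7 of 8 fibroblast, 7 of 8 macrophage and 4 of 8 endothelial markers (28.2% of all genes). The fibre, macrophage and endothelial lists had 1 risen gene each, and the fibroblast list 0 (26.3% of all genes). In RP against Cisplatin, 1 macrophage and 1 endothelial marker fell. The part of these lists in the E2 results below was not tested.

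The UBE2D enzymes are near-identical broad-range E2s, and Ube2d1 and Ube2d3 moved in opposite directions in these muscles. The stretches just before their start sites are shown so that they can be set beside that result, together with the stretch before Ube2g1, a riser of the cullin-RING group. They come from the RefSeq promoter table on build GRCm38.p6 and run 5′ to 3′ on the strand of the gene. Capitals mark GC boxes (GGGCGG on either strand) and a CCAAT box on either strand.
Ube2d1, chr10:71285263-71285512, minus strand: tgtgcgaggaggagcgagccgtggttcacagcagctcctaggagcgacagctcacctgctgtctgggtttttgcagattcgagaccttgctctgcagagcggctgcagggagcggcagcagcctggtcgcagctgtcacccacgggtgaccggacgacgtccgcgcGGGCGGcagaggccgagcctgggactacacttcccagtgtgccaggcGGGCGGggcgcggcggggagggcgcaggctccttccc
Ube2d3, chr3:135437982-135438148, plus strand: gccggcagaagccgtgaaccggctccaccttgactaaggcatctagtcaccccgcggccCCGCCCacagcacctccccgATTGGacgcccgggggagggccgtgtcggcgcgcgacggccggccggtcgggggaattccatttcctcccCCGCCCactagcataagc
Ube2g1, chr11:72607011-72607260, plus strand: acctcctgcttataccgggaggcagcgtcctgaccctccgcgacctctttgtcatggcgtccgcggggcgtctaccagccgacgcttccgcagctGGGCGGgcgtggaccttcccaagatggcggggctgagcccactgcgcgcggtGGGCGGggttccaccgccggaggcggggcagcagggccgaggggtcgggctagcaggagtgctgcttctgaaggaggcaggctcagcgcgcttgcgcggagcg
The Ube2d1 stretch is 250 bases with a GC content of 69.2%, and its GC boxes begin at -84 and -37 from the RefSeq start. The Ube2d3 stretch is 167 bases at 70.7% GC, since the last 83 bases before the most upstream RefSeq start lie inside the GENCODE gene model and were left out. It holds GC boxes at -191 and -101 and a CCAAT box at -171, and it overlaps the gene 4930539J05Rik. The Ube2g1 stretch is 250 bases at 71.6% GC with GC boxes at -155 and -103. All 3 stretches carry a pair of GC boxes. Whether GC boxes go with the direction of change was not tested.

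Of the 37 genes, 30 had an entry in the RefSeq promoter table. Over the 250 bases before the most upstream start, their GC content had a median of 62.6% (range 36 to 80.4%), against 52% over all 27025 promoters. A GC box (GGGCGG) stood in 18 of the 30 (60% against 33% of all promoters), and the ETS core CCGGAAG in 5 (16.7% against 7.07%). The half-site TGACG stood in 8 (26.7% against 17.8%), CCAAT in 9 (30% against 34.5%), TATAAA in 3 (10% against 13%) and the E-box CACGTG in 2 (6.67% against 6.04%). The antioxidant element TGACNNNGC, which shares its first letters with TGACG, stood in 3 (10% against 10.1%). The FoxO core GTAAACA and the AP-1 site TGANTCA stood in 0 of the 30, against 3.06% and 6.85% of all promoters. All were searched on both strands, and these are counts of letters, not of bound sites.

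In Cisplatin against Normal, the E2 genes rose more often than they fell. With edgeR's quasi-likelihood test and a Benjamini-Hochberg adjusted p under 0.05 over all 12859 genes tested, 14 of the 30 E2 genes rose and 4 fell. Of these 4, Ube2l6 and Ube2cbp passed the filter only through the other groups, in which they are higher. The 18 called are 60% of those tested, against 54.5% of all genes, so the share called was near the background. By direction, 46.7% of the E2 genes rose, against 26.3% of all genes, and 13.3% fell, against 28.2%. The median log2 fold change of the 30 was 0.23, against -0.08 over all genes. Scaled by library size alone, which moved the median of all genes to -0.15, the split was 12 risen and 6 fallen. Groups did not overlap for 22 of the 30 E2 genes, against 62.2% of all genes: 14 were higher in every Cisplatin library (30.3% of all genes) and 8 lower (31.9%).

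In RP against Cisplatin, 6 of the 30 E2 genes rose and 10 fell. Ube2l6 and Ube2cbp, among the 6, entered the test only through groups in which they are higher. The 16 called are 53.3% of those tested, against 48.8% of all genes. Risen genes made up 20% of the E2 genes and 24.6% of all genes, and fallen genes 33.3% and 24.2%. The median log2 fold change was -0.29, against 0.07 over all genes. Scaled by library size alone, which moved the median of all genes to 0.21, the split was 8 risen and 7 fallen. Groups did not overlap for 21 of the 30, against 56.8% of all genes: 9 were higher in every RP library (29.0% of all genes) and 12 lower (27.8%). The 2 comparisons share the Cisplatin libraries, so a gene high in those libraries tends to count as risen in the first and fallen in the second.

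Side by side, 10 genes were called risen in Cisplatin against Normal and fallen in RP against Cisplatin, among them Ube2b, Ube2d3, Ube2g1, Ube2j1, Ube2k, Ube2l3, Ube2o, Ube2q1 and Ube2v1. Ube2d1, Ube2e2, Ube2l6 and Ube2cbp were called in the opposite directions. Ube2g2, Ube2q2, Ube2s and Ube2z were called in the first comparison alone, and Ube2e3 and Ube2t in the second alone. The other 10 were called in neither: Ube2a, Ube2d2a, Ube2e1, Ube2f, Ube2h, Ube2m, Ube2n, Ube2r2, Ube2v2 and Ube2w.

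**Figure D1:**
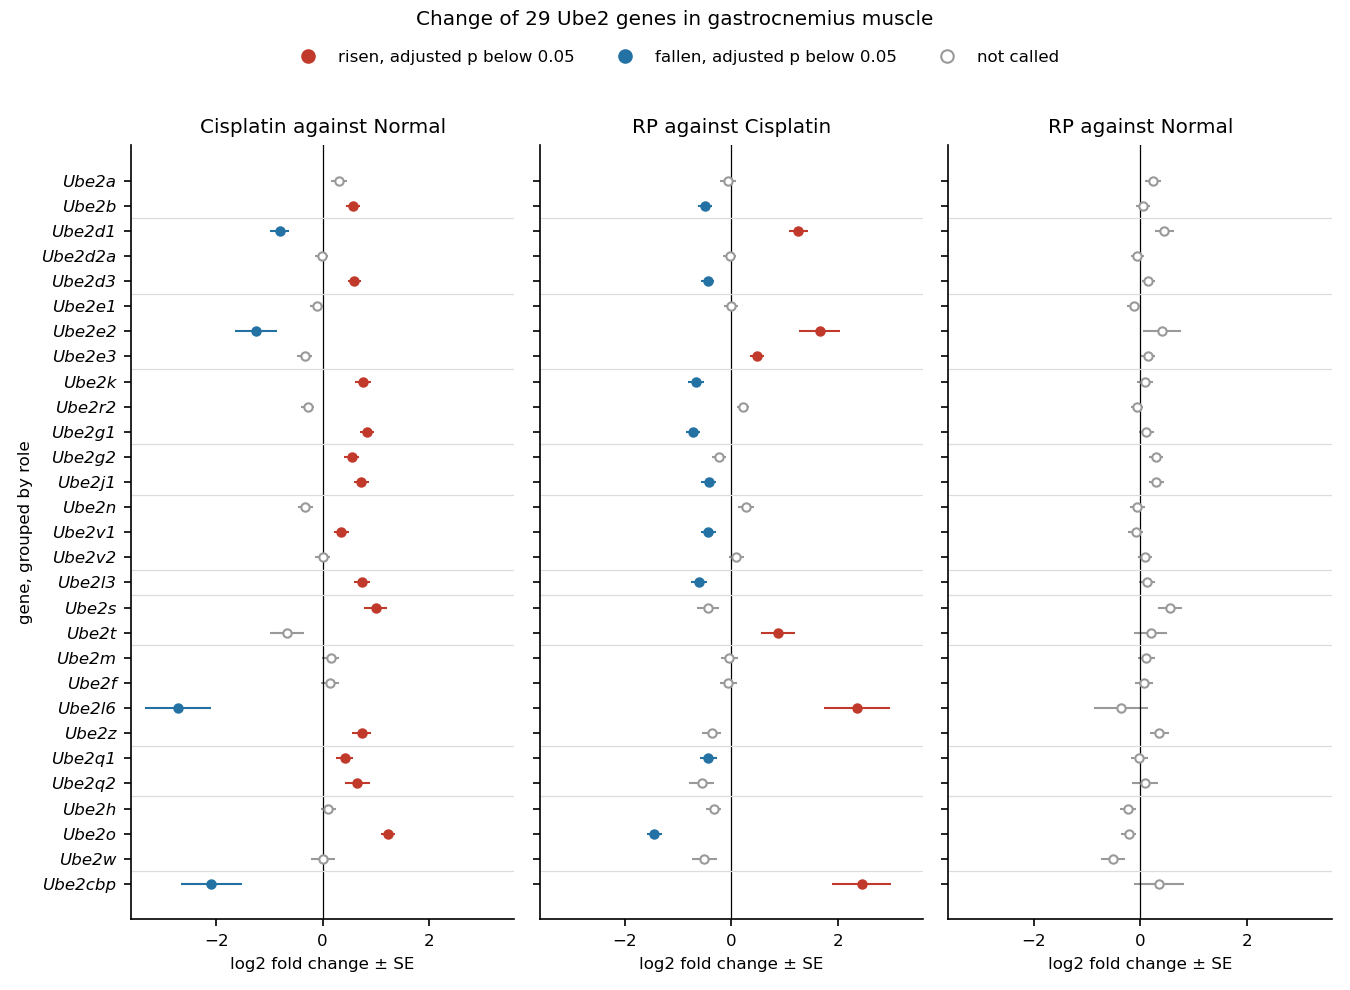
Log2 fold change ± SE (edgeR) of 29 of the tested Ube2 genes, grouped by role between the grey lines, in each of the 3 comparisons. Filled red points are risen and filled blue points fallen at an adjusted p under 0.05. Points to the right of 0 in the left panel mostly stand to the left of it in the middle panel, which shares the Cisplatin libraries, and no point is filled in RP against Normal.

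All 37 E2 genes together summed to 2310 ± 24.2 CPM in Normal (SD, n = 3), 3049 ± 256 in Cisplatin and 2437 ± 97.9 in RP. Every Cisplatin library (2896 to 3344) lay above every Normal (2282 to 2326) and RP library (2365 to 2549). As shares of the unscaled library total, the E2 counts were 0.227 to 0.235% (Normal), 0.284 to 0.296% (Cisplatin) and 0.253 to 0.258% (RP). Cisplatin replicate 3, with a TMM factor of 0.85, had the highest CPM sum but the lowest unscaled share of its group. A few genes made up most of these counts. Ube2b, Ube2d3, Ube2r2, Ube2k and Ube2l3 together took 58.9 to 64.5% of the E2 counts in a library. Ube2b alone took 28.4 ± 1.04% in Normal (SD, n = 3), 31.7 ± 1.70% in Cisplatin and 28 ± 0.68% in RP. Tags are counted once per transcript here, so no division by gene length applies.

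Ube2b and Ube2a encode the RAD6 homologues, which serve DNA damage tolerance, histone ubiquitination and the N-degron ligases. Ube2b (chromosome 11, 51985497 to 52000762, GRCm38) stood at 634, 661 and 671 CPM in the Normal libraries, 864, 940 and 1099 in Cisplatin and 670, 648 and 733 in RP. All Cisplatin libraries were above all others, and the RP libraries overlapped Normal. Ube2b rose 1.48-fold (log2 0.56 ± 0.13 SE, adjusted p = 0.00261) and was 1.42-fold lower in RP than in Cisplatin (log2 -0.50 ± 0.13, adjusted p = 0.00637, edgeR). Its near-identical sister Ube2a was not called, at 33.2 ± 2.91 CPM in Normal (SD, n = 3), 41.0 ± 5.67 in Cisplatin and 39.3 ± 4.55 in RP, with a log2 change of 0.30 (95% interval -0.02 to 0.63). The gene Gm26551 overlaps the 3′ end of Ube2b on the same strand, so tags of both would be counted together if strand and gene ends do not part them.

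The UBE2D genes, whose products serve many RING and HECT ligases, showed 3 different patterns. Ube2d3 (chromosome 3, 135438149 to 135468198) stood at 254, 250 and 278 CPM in Normal, 405, 373 and 401 in Cisplatin, and 272, 270 and 324 in RP. It rose 1.51-fold (log2 0.59 ± 0.12, adjusted p = 0.00114) and was lower in RP than in Cisplatin by a log2 of -0.45 ± 0.12 (adjusted p = 0.00867, edgeR). Its Cisplatin libraries did not overlap either other group.

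Ube2d1 (chromosome 10, 71254980 to 71285262) was the only E2 gene with a mean of at least 5 CPM that was called fallen in Cisplatin. It stood at 97.5, 118 and 65.3 CPM in Normal, 54.5, 52.1 and 54.1 in Cisplatin and 134, 113 and 136 in RP. The Cisplatin libraries lay close together under all others, whereas the Normal libraries were spread and overlapped RP. Ube2d1 fell 1.75-fold (log2 -0.81 ± 0.18, adjusted p = 0.00192) and was 2.39-fold higher in RP than in Cisplatin (log2 1.25 ± 0.18, adjusted p = 9.08e-05, edgeR). Ube2d2a was level, at 70.7 ± 5.92 CPM in Normal (SD, n = 3), 69.7 ± 1.57 in Cisplatin and 68.1 ± 2.30 in RP. The 95% interval of its log2 change in Cisplatin against Normal was -0.27 to 0.24. The copies Ube2d2b, Ube2dnl1 and Ube2dnl2 had 0 counts in every library.

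Within a library, the ratio of Ube2d1 to Ube2d3 does not depend on how the libraries were scaled. Its log2 value, with 0.5 CPM added to each gene, was -1.38, -1.08 and -2.08 in Normal, -2.88, -2.83 and -2.88 in Cisplatin, and -1.02, -1.25 and -1.25 in RP. The group means were -1.51 ± 0.51 (SD, n = 3), -2.86 ± 0.03 and -1.17 ± 0.13. The 3 Cisplatin values lay under all 6 others, with a two-sided exact permutation p of 0.1 against each group, the smallest that 3 against 3 allows. The ratio of Ube2d2a to Ube2d3 also lay lower in Cisplatin, by 0.61 against Normal, without overlap.

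In all, 11 pairs of related E2 genes were compared in this way over the 3 comparisons, with 33 tests, and the smallest adjusted exact permutation p was 0.22. Groups did not overlap for 6 pairs in Cisplatin against Normal, 7 in RP against Cisplatin and 2 in RP against Normal. Pairs of other genes were not counted, so these numbers have no background of their own. Over all single genes, groups did not overlap for 62.2%, 56.8% and 19.2% in the same order. Besides the UBE2D pairs, the ratio of Ube2l3 to Ube2l6 was higher in Cisplatin than in Normal by 2.40, and that of Ube2e2 to Ube2e3 lower by 0.66. Ube2l6 had 3 counts in each Cisplatin library and none of these passed the filter level, so the size of its ratio depends on the CPM added. With 0.1 or 2 CPM added in place of 0.5, the Ube2l3 to Ube2l6 difference was 3.10 or 1.56. With 2 CPM the Ube2e2 to Ube2e3 difference was -0.31. The ratio of Ube2m to Ube2f, the 2 NEDD8 enzymes, differed by 0.01.

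**Figure D2:**
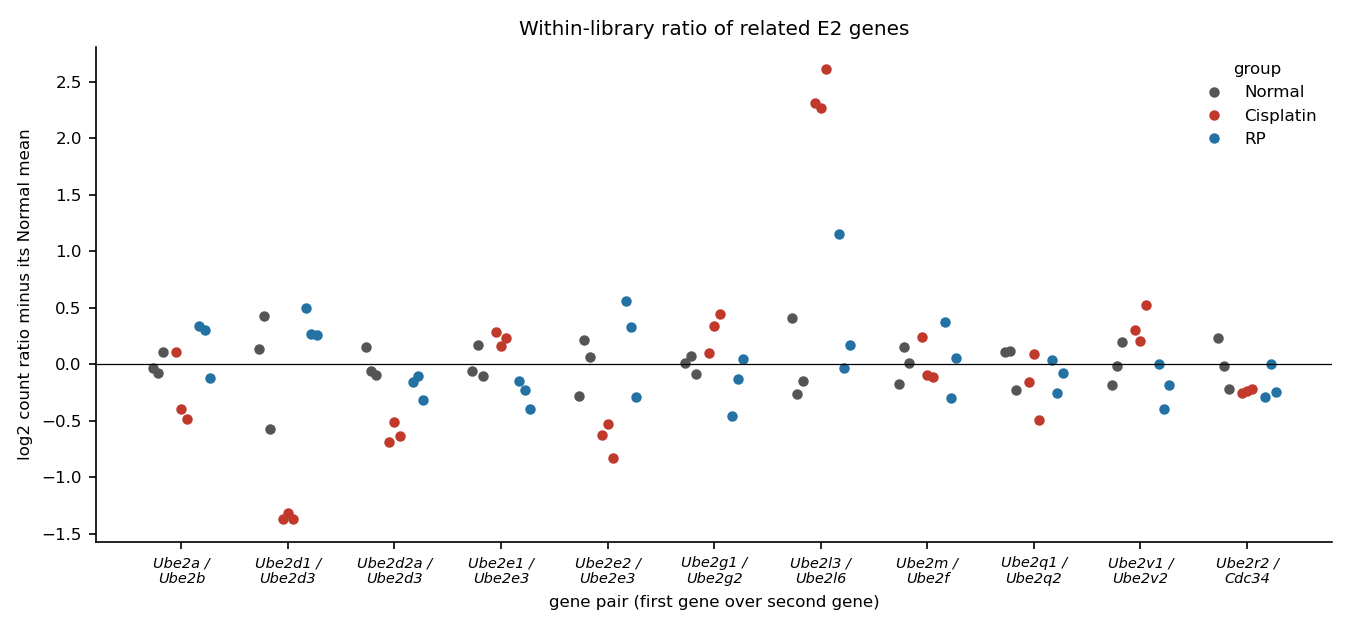
Log2 ratio of the counts of 2 related E2 genes in each library (CPM + 0.5), minus the Normal mean of that ratio, for 11 pairs. Each point is 1 library. The Cisplatin points of Ube2d1 over Ube2d3 sit together under all other points of that pair, and those of Ube2l3 over Ube2l6 above. Ube2l6 had 3 counts in each Cisplatin library, so the height of those points depends on the CPM added.

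The UBE2E genes, relatives of UBE2D with a longer N-terminus, were low or level in Cisplatin. Ube2e2 stood at 2.42, 3.58 and 3.37 CPM in Normal, 1.18, 1.43 and 1.31 in Cisplatin and 4.96, 4.67 and 2.83 in RP. All Cisplatin libraries were below all others. Ube2e2 fell by 1.25 ± 0.39 on the log2 scale (adjusted p = 0.0161) and was higher in RP than in Cisplatin by 1.66 ± 0.39 (adjusted p = 0.00309, edgeR). Without Normal replicate 2 its fall was -1.13 with an adjusted p of 0.0551. Ube2e3 was called only in RP against Cisplatin, where it rose by 0.48 ± 0.14 (adjusted p = 0.0102). Its log2 change in Cisplatin against Normal was -0.34 with an adjusted p of 0.0533, and -0.41 with 0.0321 without Cisplatin replicate 3. Ube2e1, at 90.4 ± 7.96 CPM in Normal (SD, n = 3), was not called in any comparison.

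Ube2g1, Ube2k and Ube2r2 build chains that the proteasome reads, and Ube2g1 and Ube2r2 do so with cullin-RING ligases. Ube2g1 (chromosome 11, 72607283 to 72686481) stood at 107, 90.3 and 91.4 CPM in Normal, 157, 167 and 192 in Cisplatin, and 93.2, 113 and 107 in RP. It rose 1.79-fold (log2 0.84 ± 0.13, adjusted p = 0.000141) and was lower in RP than in Cisplatin by a log2 of -0.72 ± 0.13 (adjusted p = 0.000564, edgeR). Its Cisplatin libraries stood clear of both other groups, which overlapped each other.

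Ube2k (chromosome 5, 65537233 to 65598988), an E2 that can extend such chains by itself, stood at 105, 122 and 113 CPM in Normal, 175, 170 and 227 in Cisplatin and 113, 110 and 138 in RP. The order of the groups was that of Ube2g1, with Cisplatin replicate 3 the highest library. Ube2k rose by a log2 of 0.75 ± 0.14 (adjusted p = 0.00064) and was lower in RP than in Cisplatin by -0.67 ± 0.14 (adjusted p = 0.00183, edgeR). Ube2r2, the partner of SCF ligases beside Cdc34, was not called: 263 ± 22.7 CPM in Normal (SD, n = 3), 217 ± 14.2 in Cisplatin and 253 ± 1.95 in RP. Its log2 change in Cisplatin was -0.28, adjusted p = 0.0611, and it was called fallen, at -0.35 with an adjusted p of 0.0237, when libraries were scaled by size alone. Cdc34 itself had a log2 change of -0.04 (95% interval -0.31 to 0.23).

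Ube2j1 and Ube2g2 serve the ligases that clear misfolded proteins from the endoplasmic reticulum, and both rose. Ube2j1 (chromosome 4, 33031416 to 33052363) stood at 55.1, 51.2 and 53.2 CPM in Normal, 86.2, 85.5 and 92.6 in Cisplatin, and 59.4, 56.4 and 80.7 in RP. It rose by a log2 of 0.73 ± 0.15 (adjusted p = 0.000854, edgeR), without overlap. In RP against Cisplatin it was called fallen at -0.43 ± 0.14 (adjusted p = 0.0251). That call was lost without Cisplatin replicate 3 (-0.40, adjusted p = 0.0588), RP replicate 1 (-0.36, 0.0966) or RP replicate 2 (-0.33, 0.108), or with library size scaling (-0.29, 0.0921). Ube2g2 rose by 0.54 ± 0.13 (adjusted p = 0.00385) and was not called in RP against Cisplatin, at -0.24. Ube2j2, with 4, 20 and 4 counts over the Normal, Cisplatin and RP groups, was not tested.

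**Figure D3:**
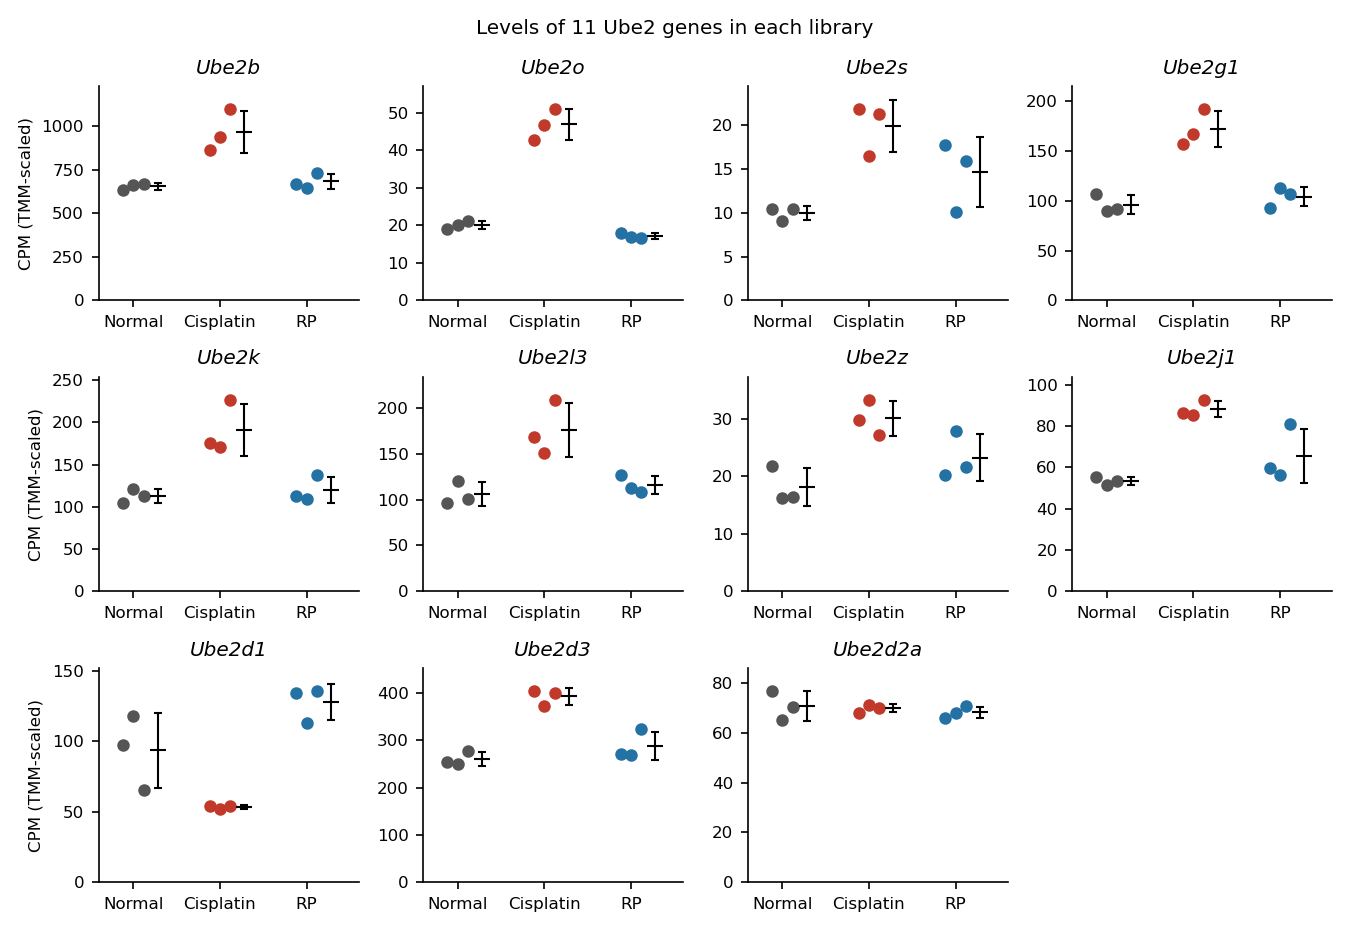
TMM-scaled CPM of 11 Ube2 genes in each library; points are libraries, and bars the mean ± SD of 3. Cisplatin stands above Normal in 9 panels, from 864 to 1099 CPM against 634 to 671 for Ube2b, below it for Ube2d1, and level with it for Ube2d2a.

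Ube2l3 serves HECT and RBR ligases such as parkin. It (chromosome 16, 17152013 to 17202649) stood at 96.4, 121 and 100 CPM in Normal, 168, 151 and 208 in Cisplatin, and 127, 112 and 108 in RP. It rose 1.66-fold (log2 0.73 ± 0.15, adjusted p = 0.000843) and was lower in RP than in Cisplatin by -0.60 ± 0.15 (adjusted p = 0.00384, edgeR). No Cisplatin library overlapped another group. The gene at its 3′ end on the opposite strand, Ydjc, had at most 0.50 CPM in any library.

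Ube2n builds the chains used in signalling and repair, with Ube2v1 or Ube2v2 as a partner that lacks the catalytic cysteine. Ube2v1 rose by a log2 of 0.35 ± 0.14 (adjusted p = 0.0469) and was lower in RP than in Cisplatin by -0.44 ± 0.14 (adjusted p = 0.0184, edgeR). The rise was lost without Normal replicate 1 (adjusted p = 0.0997), Normal replicate 2 (0.13), Cisplatin replicate 1 (0.0543), Cisplatin replicate 2 (0.0633) or Cisplatin replicate 3 (0.121). It was also lost with library size scaling (0.0987), no filter (0.07) or a minimum of 5 CPM in 3 libraries (0.0879). The fall was lost without Cisplatin replicate 3 (0.0569) or RP replicate 2 (0.0823), or with library size scaling (0.0823). Ube2v1 is also uncertain because 15.5% of the 50-base words in its last 300 bases occur in Gm20431, which shares its 3′ end. Ube2v2 had a log2 change of -0.00 (95% interval -0.29 to 0.29) in Cisplatin against Normal. Ube2n was not called, at 36.0 ± 4.80 CPM in Normal (SD, n = 3), 28.6 ± 1.75 in Cisplatin and 34.6 ± 2.04 in RP. Its log2 change was -0.33 with an adjusted p of 0.0678, and -0.42 with 0.0361 without Normal replicate 3.

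Ube2s, Ube2c and Ube2t are known from dividing cells and DNA crosslink repair. Ube2s, which extends chains for the anaphase-promoting complex, stood at 10.4, 9.02 and 10.5 CPM in Normal, 21.9, 16.4 and 21.3 in Cisplatin, and 17.8, 10.1 and 15.9 in RP. Cisplatin lay above Normal without overlap, and RP overlapped both. Ube2s rose 1.99-fold (log2 0.99 ± 0.22, adjusted p = 0.00188), and in RP against Cisplatin it was not called (log2 -0.44, adjusted p = 0.105, edgeR).

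Ube2s (chromosome 7, 4794546 to 4812590) ends against the ribosomal protein gene Rpl28 on the opposite strand. Rpl28 stood at 121, 143 and 138 CPM in Normal and 235, 195 and 195 in Cisplatin, a rise by a log2 of 0.64 ± 0.15 (adjusted p = 0.00276, edgeR). The strand setting of the counting is not given in the sources used here, so it is not known whether some tags of 1 gene were counted for the other. Ube2c, which starts the chains that Ube2s extends, had 29, 17 and 20 counts over the 3 groups and was not tested. The 10 markers of dividing cells together gave 32.7 to 36.4 CPM (Normal), 36.7 to 41.2 (Cisplatin) and 31.4 to 36.6 (RP). Most of that sum was Ccna2, with means of 22.7 CPM in Normal, 34.1 in Cisplatin and 27.0 in RP. Ccna2 was the 1 of the 5 tested markers that rose in Cisplatin. The other 4 had negative log2 changes, and 1 of them, Top2a, was called fallen (-2.03). The part of these markers in the Ube2s result was not tested.

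Ube2t, the E2 of the Fanconi anaemia pathway, which repairs the crosslinks that platinum drugs make, was not called in Cisplatin against Normal. It stood at 4.80 ± 0.46 CPM in Normal (SD, n = 3), 2.97 ± 1.07 in Cisplatin and 5.49 ± 0.81 in RP. Its log2 change in Cisplatin was -0.68 (95% interval -1.37 to 0.01, adjusted p = 0.0895), and -1.01 with an adjusted p of 0.029 without Cisplatin replicate 2. It was called risen in RP against Cisplatin, by 0.87 ± 0.32 (adjusted p = 0.0353, edgeR). That call was lost without Cisplatin replicate 1 (adjusted p = 0.0973), Cisplatin replicate 3 (0.123), RP replicate 2 (0.112) or RP replicate 3 (0.0624). It was also lost with no filter (0.0514) or in a fit of the 2 groups alone (0.0528).

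The E2s of other modifiers did not move together. Ube2z, which carries ubiquitin or FAT10 handed over by Uba6, stood at 21.9, 16.2 and 16.4 CPM in Normal, 29.8, 33.3 and 27.2 in Cisplatin, and 20.3, 27.9 and 21.6 in RP. Cisplatin lay above Normal without overlap, and RP replicate 2 lay within the Cisplatin range. Ube2z (chromosome 11, 96047432 to 96065388) rose by a log2 of 0.73 ± 0.18 (adjusted p = 0.00353, edgeR). Its change in RP against Cisplatin, -0.37 with an adjusted p of 0.0939, was called only without RP replicate 2 (-0.52, 0.0409). Uba6, its E1, fell by 1.03 on the log2 scale in Cisplatin.

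Ube2l6 conjugates ISG15, an interferon-induced modifier, after activation by Uba7. It stood at 1.33, 3.12 and 2.29 CPM in Normal, 0.35, 0.29 and 0.36 in Cisplatin, and 0.93, 2.38 and 1.92 in RP, from 57, 9 and 52 counts per group. The Cisplatin libraries were below all others, and none of them passed the filter level, so the gene entered the test through the groups in which it is higher. Ube2l6 fell by 2.72 ± 0.62 on the log2 scale (adjusted p = 0.00218) and was higher in RP than in Cisplatin by 2.36 ± 0.62 (adjusted p = 0.00674, edgeR). In its last 300 bases, 15.1% of 50-base words also occur in 2700054A10Rik or Gm48377, so its level is uncertain.

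Uba7 fell 3.99-fold in Cisplatin and was higher in RP than in Cisplatin by a log2 of 2.63, and Isg15 was called only in the second, at 0.91. The 12 interferon response genes together gave 142 to 230 CPM (Normal), 56.5 to 157 (Cisplatin) and 278 to 452 (RP). Of the 12, 6 fell and 0 rose in Cisplatin, and 10 rose and 0 fell in RP against Cisplatin. Their part in the Ube2l6 result was not tested. For NEDD8, a modifier of cullins, Ube2m and Ube2f were not called (log2 0.15 and 0.13 in Cisplatin), while Nedd8 rose by 0.36 and, of its E1, Nae1 rose by 0.55 and Uba3 fell by 0.54.

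Ube2o, a large hybrid of E2 and E3 that handles unassembled proteins and is abundant in maturing red cells, had the largest rise of the E2 genes. It (chromosome 11, 116537740 to 116581447) stood at 19.0, 20.0 and 21.2 CPM in Normal, 42.9, 46.9 and 51.0 in Cisplatin, and 18.1, 16.9 and 16.6 in RP. The Cisplatin libraries stood far above the others, and the RP libraries lay just below all Normal ones. Ube2o rose 2.34-fold (log2 1.23 ± 0.14, adjusted p = 8.59e-06) and was 2.73-fold lower in RP than in Cisplatin (log2 -1.45 ± 0.14, adjusted p = 3.48e-06, edgeR).

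The 7 erythroid markers together gave 4159 to 8992 CPM (Normal), 34.0 to 60.4 (Cisplatin) and 64.9 to 410 (RP). All 5 that could be tested fell in Cisplatin against Normal (28.2% of all genes) and in RP against Normal (0.319%). In RP against Cisplatin, 4 of the 5 rose (24.6% of all genes). Over the Cisplatin group, 2 of the 7 were at 0. The part of these markers in the Ube2o result was not tested. Ube2h, also an E2 of maturing red cells, was not called: 92.6 ± 4.83 CPM in Normal (SD, n = 3), 99.7 ± 19.5 in Cisplatin and 79.0 ± 5.51 in RP. Its change in RP against Cisplatin, -0.34, had an adjusted p of 0.0675, and it was called at -0.44 (0.0306) without Cisplatin replicate 1.

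Ube2w, which modifies protein N-termini, had log2 changes of 0.00 in Cisplatin against Normal and -0.51 in RP against Cisplatin (adjusted p = 0.0799). Ube2q1 and Ube2q2, of a less studied family, rose by 0.41 ± 0.16 (adjusted p = 0.0392) and 0.65 ± 0.23 (adjusted p = 0.0311, edgeR) on the log2 scale in Cisplatin. The rise of Ube2q1 was lost without Normal replicate 1 (adjusted p = 0.0572), 2 (0.0679) or 3 (0.102) or Cisplatin replicate 1 (0.0533) or 3 (0.112). It was also lost with library size scaling (0.0786), no filter (0.0575) or a minimum of 5 CPM in 3 libraries (0.0676). The rise of Ube2q2 was lost without Normal replicate 1 (0.0736) or 2 (0.0765) or Cisplatin replicate 3 (0.164), and by limma-voom (0.0521). In RP against Cisplatin, Ube2q1 fell by 0.43 ± 0.16 (adjusted p = 0.0341), a call lost without Cisplatin replicate 3 (0.106), RP replicate 1 (0.138) or RP replicate 2 (0.0718). The call was also lost with library size scaling (0.131), no filter (0.0511), a minimum of 5 CPM in 3 libraries (0.0521) or a fit of the 2 groups alone (0.0585). Ube2q2 was not called there, at -0.56 with an adjusted p of 0.0608, and it was called, at -0.74 (0.0234), without Cisplatin replicate 2.

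Ube2ql1 (8, 3 and 8 counts over the groups) and Ube2u (0, 4 and 3 counts) were too low to test. Ube2cbp, the E3 among these names, stood at 2.90, 1.73 and 2.17 CPM in Normal, 0.47, 0.19 and 0.95 in Cisplatin, and 2.38, 3.28 and 3.03 in RP. The Cisplatin libraries were below all others, and none passed the filter level, so Ube2cbp entered the test through the groups in which it is higher. It fell by 2.09 ± 0.57 on the log2 scale (adjusted p = 0.00665) and was higher in RP than in Cisplatin by 2.44 ± 0.56 (adjusted p = 0.00259, edgeR). Without it, 14 of 29 E2 genes rose and 3 fell in Cisplatin.

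In RP against Normal, 0 of the 30 E2 genes were called by edgeR, DESeq2 or limma-voom. Over all 12859 genes, edgeR called 0.505% (65 genes), DESeq2 called 103 risen and 126 fallen, and limma-voom 21 risen and 45 fallen. Ube2d1, Ube2g2, Ube2s and Ube2w had an unadjusted p under 0.05. The share of all genes at that level was not counted, so these 4 cannot be set against a background. The widest differences had intervals that leave room for sizeable changes. That of Ube2s was 0.55 (95% interval 0.07 to 1.03, adjusted p = 0.317) and that of Ube2d1 0.45 (0.07 to 0.83, adjusted p = 0.308). That of Ube2w was -0.51 (-0.997 to -0.016, adjusted p = 0.372). For Ube2b the interval was narrower, -0.22 to 0.34 around 0.06. Groups did not overlap for 4 of the 30, against 19.2% of all genes: 1, Ube2j1, was higher in RP (9.65% of all genes), and 3, Ube2h, Ube2o and Ube2w, were lower (9.53%). The median over the 30 was 0.10, against -0.01 over all genes.

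The rest of the pathway was described with lists of E1s, modifiers, other E2s and E3s. The counts stand beside 26.3% risen and 28.2% fallen over all genes in Cisplatin against Normal, and 24.6% and 24.2% in RP against Cisplatin. All 3 ubiquitin genes tested rose in Cisplatin, Rps27a by 0.53 on the log2 scale, and 2 of them fell in RP against Cisplatin. Of 7 ubiquitin-like modifiers, 4 rose (57.1%) and 0 fell in Cisplatin, Sumo3 by 1.06, with Fau at 0.49 and Ufm1 at 0.50, and in RP against Cisplatin 1 rose and 3 fell.

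The 8 E1 genes were all called in Cisplatin, 3 risen (37.5%) and 5 fallen (62.5%), with a median of -0.56 where that of the E2 genes was 0.23. Uba1, the main ubiquitin E1, rose by 0.41, and Uba7, Sae1 and Uba6 were among those that fell. In RP against Cisplatin, 4 E1 genes rose and 2 fell. Of 8 E2 and E2-variant genes with other names, 3 rose (37.5%) and 1 fell (12.5%) in Cisplatin. Aktip rose by 0.95 and Birc6, a giant E2 that restrains apoptosis, by 0.80, whereas Atg10, an E2-like enzyme of autophagy, fell by 2.30. In RP against Cisplatin 1 of these 8 rose (Atg10, by 2.05) and 2 fell.

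Of 41 E3 genes that work with these E2s, 18 rose and 4 fell in Cisplatin, and 4 rose and 14 fell in RP against Cisplatin. The shares called, 53.7% and 43.9%, were near or below those over all genes (54.5% and 48.8%). By direction, 43.9% rose and 9.76% fell in Cisplatin, and 9.76% rose and 34.1% fell in RP against Cisplatin. Fbxo32 rose by 4.72 and Trim63 by 4.25 on the log2 scale, against 1.23 for Ube2o, the largest rise among the E2 genes. Ubr4, an N-degron ligase that works with Ube2a and Ube2b, rose by 1.41, and Ranbp9, a subunit of the CTLH ligase that works with Ube2h, by 1.59. In RP against Normal, none of the genes in these 5 lists was called by edgeR. With unadjusted p under 0.05, 3 of the 8 E1 genes, 0 of 3 ubiquitin genes, 1 of 7 modifiers, 0 of 8 other E2s and 5 of 41 E3s passed. The share of all genes at that level was not counted, so these counts have no background.

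**Figure D4:**
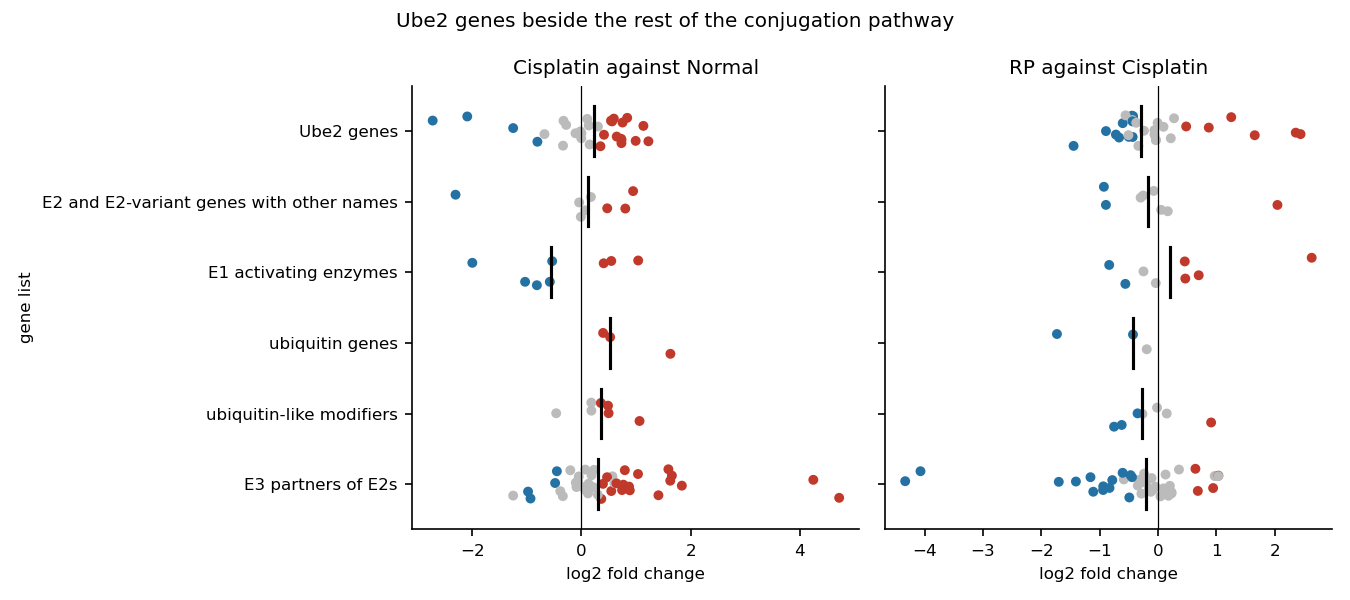
Log2 fold change of each tested gene in 6 lists of the conjugation pathway; red points rose, blue points fell, grey points were not called, and black bars are list medians. The E1 median (-0.56) lies left of 0 in Cisplatin against Normal while the other medians lie right of it, and Fbxo32 and Trim63 stand beyond 4 among the E3s.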

How the data were processed

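The authors deposited raw read counts per gene symbol for each of 9 gastrocnemius libraries. Per the labels' protocols, Lexogen QuantSeq 3′ libraries were made from 500 ng of Trizol-extracted RNA. The submitters' processing notes name Bowtie2, edgeR and mm10. No version, counter, strand setting or annotation is given in the sources used here, so overlapping and near-identical genes may share tags.

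From the counts, 79 of 23282 rows that share 35 symbols were summed. Replicates differed beyond counting error (chi-square per degree of freedom 11.3 to 28.9), and no 2 libraries were identical. The 12859 genes kept by filterByExpr were scaled with TMM and fitted over all 9 libraries with edgeR 4.0.16 in R 4.3.3 (glmQLFit, glmQLFTest), and called at a Benjamini-Hochberg adjusted p under 0.05 over all of them. Members and gene lists were chosen with earlier results of these data known. Values in every library follow a rule: the 8 largest called rises and falls in Cisplatin whose mean reaches 5 CPM (8 and 1 genes). Those of Ube2b, Ube2d3, Ube2e2, Ube2l6, Ube2cbp and Rpl28 were added after their values were seen, as were the cascade genes Nedd8, Nae1, Uba3, Uba6, Uba1, Isg15 and Cdc34. For pathway lists up to 3 called genes of lowest p are named. Some genes that the rule names enter the counts but are not reported here.

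Ratios of related genes used exact permutation tests (scipy 1.17.1). The edgeR procedure was tested on simulated counts in which only the Cisplatin group was changed. Of 100 genes changed by a log2 of 1, 39 were recovered in Cisplatin against Normal and 50 in RP against Cisplatin. Of 100 changed by a log2 of 2, 90 and 87 were. Of 12358 unchanged genes, 10 and 12 were called. A gene that was not called may therefore still have changed. Positions are GENCODE M21 on GRCm38. Alternatives were RLE and library size scaling, limma-voom (limma 3.58.1), DESeq2 1.42.0, no filter, a minimum of 5 CPM in 3 libraries, 2-group fits, a replicate block, pseudocounts of 0.1 and 2 CPM and leaving out each library. Leaving out Rn45s was added after seeing the data.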

Additional observations from a re-analysis of the deposited data

How the results depend on the processing

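The counts of risen and fallen E2 genes stayed within 1.5 times under every alternative run. Over the fits that left out 1 library they were 11 to 14 risen and 3 to 5 fallen in Cisplatin against Normal, 5 to 6 and 7 to 11 in RP against Cisplatin, and 0 in RP against Normal. Of the 18 genes called in Cisplatin against Normal, 14 were called in every alternative that tested them, and of 16 in RP against Cisplatin, 12. The others were Ube2e2, Ube2q1, Ube2q2 and Ube2v1 in the first and Ube2j1, Ube2q1, Ube2t and Ube2v1 in the second. No called gene changed direction. Requiring 5 CPM in 3 libraries gave 4 fallen genes in Cisplatin against Normal, but only Ube2d1 was among the 4 named above. Ube2e2, Ube2l6 and Ube2cbp were not tested there, and Ube2e3, Ube2n and Ube2r2 were called. Non-overlapping gene pairs numbered 6 to 8, 7 to 8 and 2 to 5 over the left-out libraries in the 3 comparisons, with 5 in RP against Normal without RP replicate 3. With the replicate number as a block, 11 E2 genes fell in RP against Cisplatin, Ube2q2 being added (-0.54, adjusted p = 0.0466), and the other counts were those of the fit without the block. Deviations of same-numbered libraries correlated at -0.12 to 0.16 and those of other pairs at -0.19 to 0.12. Of the 9 libraries, 4 correlated best with their own number. The 2 ranges overlap widely, so these values cannot decide whether the numbers pair the libraries. Depth limits Ube2l6, Ube2cbp and the 7 genes not tested.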
